A study of Mus musculus with 12 samples.

Results

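The 43 genes described here are cell cycle drivers and replication genes of the mouse: the D-type, E-type, A-type and B-type cyclins and their kinases, 3 inhibitors of those kinases, the retinoblastoma family, the E2F factors, the licensing factors and helicase subunits that prepare DNA for copying, and a set of mitotic kinases, checkpoint and chromosome genes. They were taken from a fixed list of symbols, as every non-control probe of the array whose gene name was on the list, a rule that reads gene names only. The list itself was chosen with earlier results of these data known. All 43 had a probe that was well above background on both arrays of at least 1 group, out of 17522 genes fitted. They were read by 73 probes, of which 66 passed the filter on dim probes.

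RNA came from embryonic stem cells of mouse strain 129 and was measured on 12 one-colour arrays, 1 sample per array. The 6 groups, of 2 arrays each, were undifferentiated cells (sample titles refer to LIF, the cytokine that keeps mouse stem cells undifferentiated), embryoid bodies (EB, cell aggregates in which the cells differentiate) on days 1, 3 and 4, and monolayer cultures (ML) on days 1 and 3. The labels number the arrays of a group as clones 1 and 2, and the design text describes separate experiments run by different people. Nothing in the labels gives the differentiation medium or says whether feeder cells were present.

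The cell cycle is driven by cyclin-dependent kinases, each active only when bound to a cyclin. In most cells D-type cyclins with Cdk4 or Cdk6 start the phosphorylation of Rb1, which releases E2F factors, and these switch on genes for DNA synthesis. Cyclin E with Cdk2 then starts replication, the Mcm2-7 helicase unwinds the DNA, and cyclin B with Cdk1 drives mitosis after Cdc25 phosphatases have removed the inhibitory phosphate that Wee1 places. Mouse embryonic stem cells are known for a short first gap phase, high cyclin E and Cdk2 activity and phosphorylated Rb1. The arrays read RNA only, so neither kinase activity nor cycle phase was measured.

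Promoter sequences show how the list divides by known regulatory letters. Of the 43 genes, 33 matched a RefSeq promoter table (build GRCm38.p6, 38 windows of 300 bases, from 250 before to 50 after the start). Those without an entry were Ccne2, E2f5, Ccna2, Mcm4, Rb1, E2f4, Ccnd1, Aurkb, Ccnd2 and Wee1. E2F-type letters (TTTCCCGC, TTTGGCGC, TTTCGCGC or TTTGCCGC, either strand, overlaps counted) lay in 13 of the 38 windows, 34.2%, against 2.26% of all 32851 windows in the table. Among the licensing and fork genes 5 of 8 windows held them, and among the mitotic kinase, checkpoint and chromosome genes 0 of 6 did. Letters of the cell cycle homology region (CHR), TTTGAA or TTCGAA on either strand, were found in 15 of the 38, 39.5%, against 19.2% of all windows, and in 6 of 6 windows of the mitotic group. CCAAT was present in 26 of the 38, 68.4%, against 37.4%. A match of letters is a description of the sequence and does not show that a factor binds there.

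The 200 bases before the start of 4 genes are printed with the matches in capitals, an E2F-type pair and a CHR pair. Each pair joins a gene that fell at EB day 4 (Cdc25a and Top2a) to one that was called in no comparison (Mcm6 and Cdc20).
Cdc25a, chr9:109875379-109875578, plus strand, 1 E2F-type and 2 CCAAT matches: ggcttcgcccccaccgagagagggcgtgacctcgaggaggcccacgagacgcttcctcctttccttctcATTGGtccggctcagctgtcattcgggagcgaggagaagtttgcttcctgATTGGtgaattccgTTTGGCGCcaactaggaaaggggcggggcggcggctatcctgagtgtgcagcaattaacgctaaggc
Mcm6, chr1:128359706-128359905, minus strand, 3 E2F-type (of which 2 overlap) and 2 CCAAT matches: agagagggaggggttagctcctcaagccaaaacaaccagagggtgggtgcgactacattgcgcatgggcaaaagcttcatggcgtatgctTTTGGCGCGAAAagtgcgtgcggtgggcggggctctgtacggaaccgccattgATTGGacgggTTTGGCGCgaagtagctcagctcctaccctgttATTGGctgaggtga
Top2a, chr11:99024190-99024389, minus strand, 4 CHR and 5 CCAAT matches: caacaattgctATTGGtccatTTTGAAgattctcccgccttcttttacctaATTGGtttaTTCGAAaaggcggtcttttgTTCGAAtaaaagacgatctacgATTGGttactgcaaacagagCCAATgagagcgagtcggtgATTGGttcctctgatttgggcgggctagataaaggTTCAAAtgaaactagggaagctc
Cdc20, chr4:118437344-118437543, minus strand, 1 CHR and 2 CCAAT matches: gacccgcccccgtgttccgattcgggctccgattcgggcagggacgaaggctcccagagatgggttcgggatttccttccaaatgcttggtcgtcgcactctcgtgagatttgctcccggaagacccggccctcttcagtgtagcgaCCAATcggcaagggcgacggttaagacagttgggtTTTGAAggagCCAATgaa
Genes with the same kind of letters were thus found among those called and those not called. The windows of E2f1 and Ccnb1, which both fell, held neither E2F-type nor CHR letters.

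Between 52.1% and 63.8% of spots were well above background per array, and replicate arrays correlated at 0.972 to 0.992 over all fitted genes. Levels below are log2 signals relative to the array's 75th percentile, and a level of one gene is never set against that of another, since probes differ. Pluripotency markers were present as labelled: the 10 listed summed to 653 and 744 times the 75th percentile on the undifferentiated arrays and to 36.2 and 51.2 at EB day 4. Dppa5a was the largest part of these sums (mean 9.05 in undifferentiated cells and 4.57 at EB day 4). By limma 9 of the 10 were lower at EB day 4 (90% against 22.1% of all genes) and 0 higher, and Lin28a was not lower (2.67 and 3.13). Of 20 fibroblast markers, 18 were measured (Postn and Lum were not), and they summed to 190.0 and 83.9 on undifferentiated replicates 1 and 2, 44.1 to 56.5 in the EB arrays, 90.1 and 97.9 at ML day 1, and 163 and 119 at ML day 3. The ML day 3 sums were carried by 1 gene, Tagln, singled out after its values were seen, which made up 72.2% and 63.1% of them. Without Tagln the sums were 178 and 66.8 in undifferentiated cells and 45.4 and 43.8 at ML day 3. S100a4 was a large part of the undifferentiated sums (mean 5.67, SD 1.58 between the 2 arrays) and was left in. The mean log2 level of the 18 was 1.40 and 0.50 on undifferentiated replicates 1 and 2 and -0.30 and -0.34 at ML day 3. By limma 2 of the 18 were higher at ML day 3 than in undifferentiated cells (11.1% against 12.6% of all genes) and 9 lower (50% against 10.8%). Undifferentiated cells and EB day 4 each had a slide and scan day of their own, and the EB day 4 arrays were read on another scanner than the rest. The EB day 4 arrays had the lowest shares of spots well above background (53.8% and 52.1%), and the undifferentiated arrays the highest (63.1% and 63.8%). The file headers also give undifferentiated cells and EB day 4 each a version of the spot-reading software of their own. So for every comparison with either group, biology cannot be told apart from slide, scan day or software version. For EB day 4, biology and scanner cannot be told apart either. The EB day 1 and day 3 arrays shared a slide, as did the ML day 1 and day 3 arrays, and these 8 were scanned on 1 day. All comparisons with undifferentiated cells share the same 2 undifferentiated arrays.

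A gene was called when limma's Benjamini-Hochberg adjusted p over all genes was under 0.05. Nothing in the labels says that the arrays of a group came from separate cultures beyond the separate experiments, so p-values measure the spread between these arrays. In these bulk samples, fewer cells of a kind and less RNA per cell cannot be told apart. The share of the 43 genes called was close to the share of all genes called in most comparisons. At EB day 1 against undifferentiated cells 6 were called, 2 higher and 4 lower, which is 14.0% against 13.5% of all genes (8.09% higher and 5.46% lower). ML day 1 gave 7, 4 higher and 3 lower, 16.3% against 18.1% (11.7% higher and 6.43% lower). At EB day 3 the count was 11, 4 higher and 7 lower, 25.6% against 23.7% (13% higher and 10.8% lower). ML day 3 gave 12, 3 higher and 9 lower, 27.9% against 23.4% (12.6% higher and 10.8% lower). At EB day 4 it reached 18, 7 higher and 11 lower, 41.9% against 40.9% (18.7% higher and 22.1% lower). Taken in either direction, these shares lie near the background, so the number of genes called is not in itself a result about the cell cycle. By direction the counts lay further from it at ML day 3, where 9 of the 43 were lower against 10.8% of all genes, than at EB day 4. Whether the list differed from other genes in direction was not tested.

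The median log2 difference of the 43 genes at EB day 4 was -0.35, against -0.05 over all genes, and 34 of the 43 lay below 0. In the same comparison limma called 10 of 10 mesoderm markers higher (median 6.44, 100% against 18.7% of all genes). Of 11 measured endoderm markers 7 were higher (63.6%) and 1 lower (9.09% against 22.1%), with a median of 2.46. The part of these cell types in the change of the 43 was not tested. The median of the 43 was -0.09 at ML day 3, against 0.03 over all genes, with 27 of 43 below 0, and -0.28 with 31 below 0 after quantile normalization. At EB day 3 it was -0.06, and -0.20 after quantile normalization. At day 1 the medians were 0.07 for EB and 0.24 for ML, against 0.09 and 0.14 over all genes, but after quantile normalization they were -0.17 and -0.17. The day 1 sign of the list thus depended on how arrays were scaled, and the EB day 4 median did not (-0.34 after quantile normalization). Of all genes called at ML day 1, 64.4% were higher, and 54.0% after quantile normalization. At EB day 4 45.8% of called genes were higher, and 58.7% with normexp background correction. In all, 24 of the 43 were called in at least 1 of 11 comparisons, 55.8% against 60.4% of all genes.

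**Figure D1:**
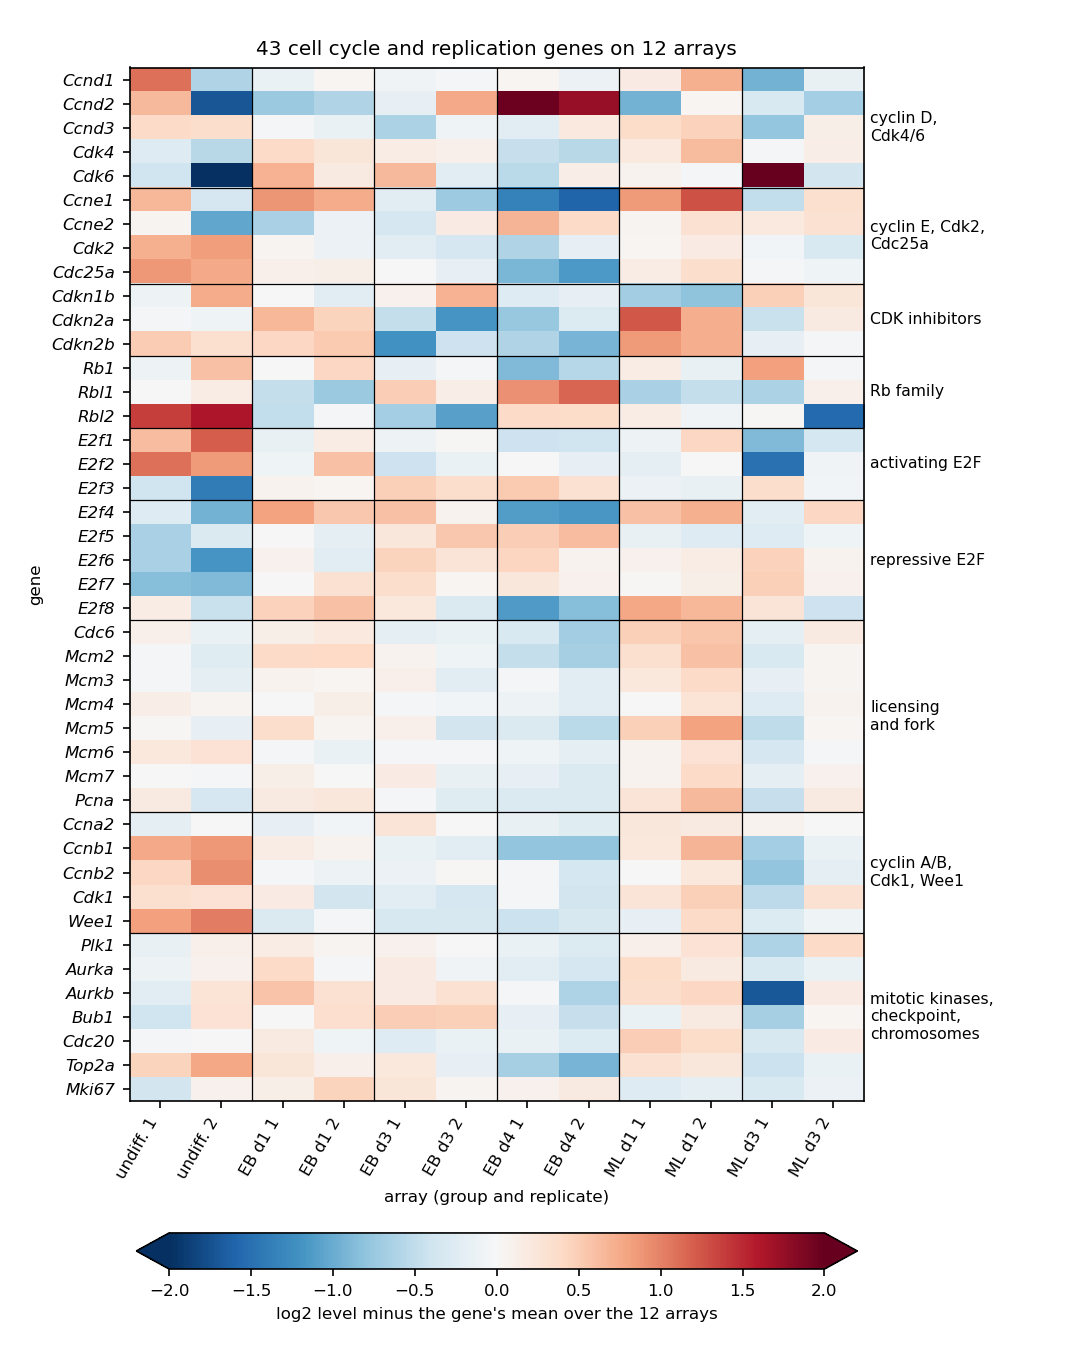
Colour shows the log2 level of each of the 43 genes (rows, by role) on each of the 12 arrays (columns, by group and replicate) minus that gene's mean over the 12 arrays. Ccnd2 was highest on both EB day 4 arrays, Cdc25a, E2f1, Ccnb1 and Wee1 were highest on both undifferentiated arrays, and the licensing and fork genes had ranges of 0.54 to 1.33 log2 units.

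The G1 side of the cycle held the largest increase. Ccnd2 encodes cyclin D2, a partner of Cdk4 and Cdk6 (probe at chr6:127079694-127079753, mm9). Its level was 2.46 and 0.10 in undifferentiated cells, 1.06 and 1.21 at EB day 1, 1.64 and 2.57 at EB day 3, 3.77 and 3.55 at EB day 4, 0.86 and 1.85 at ML day 1, and 1.5 and 1.13 at ML day 3. Both EB day 4 arrays lay above all 10 others, while the undifferentiated arrays spanned 5.15-fold between them. The rise at EB day 4 was 2.38 ± 0.67 (SE, n = 2 per group, 5.21-fold, adjusted p = 0.0191), and the other 2 Ccnd2 probes gave 2.32 and 2.28. Without undifferentiated replicate 2 it was 1.20 (adjusted p = 0.091) and was not called, and leaving out either EB day 4 array also ended the call (2.27 and 2.50, adjusted p = 0.085 and 0.063).

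Other D-type cyclins were not called in any comparison. Ccnd1, cyclin D1, lay between 0.54 and 2.59, and the undifferentiated arrays stood at 2.59 and 0.89. Ccnd3, cyclin D3, lay between 2.18 and 3.42. Cdk4, the kinase they activate, was 3.93 and 3.62 in undifferentiated cells and 4.38 and 4.81 at ML day 1, a rise of 0.82 ± 0.21 (1.76-fold, adjusted p = 0.0317) that was 0.38 and not called after quantile normalization (adjusted p = 0.19). It was also lost without undifferentiated replicate 2 (0.66), either ML day 1 array (1.04 and 0.60), or any 1 array of EB day 1 or EB day 4 (adjusted p = 0.053). On its brightest probe Cdk6, the second kinase of D-type cyclins, spread over 4.46 log2 units and was called nowhere. That probe's ML day 3 arrays stood at 3.52 and 1.01, 5.67-fold apart, and its undifferentiated arrays at 0.99 and -0.94. The other kept probes of Cdk6 fell at EB day 4 and were called when fitted by themselves, as given with the further probes below. So the absence of a call for Cdk6 holds for the brightest probe only.

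Several of these genes shared a split between the undifferentiated arrays. Ccnd1, Ccnd2, Cdk6, Ccne1, Ccne2 and E2f3 differed at least 2-fold between those arrays, each higher on replicate 1. That array also had the higher sum of fibroblast markers, of which S100a4 was a large part. No member differed 2-fold between replicates in EB or in ML day 1 cultures. Of all genes 3.38%, 8.21% and 5.27% did at EB days 1, 3 and 4, and 4.13% at ML day 1. At ML day 3 4 members did (Cdk6, Rbl2, E2f2 and Aurkb), 9.30% against 18.2% of all genes. The part that fibroblast RNA may have in these differences was not tested. In undifferentiated cells 14.0% of the 43 genes and 11.9% of all genes were 2-fold apart, so the share of members was near that of all genes.

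At the entry to S phase, Ccne1 and Cdc25a fell while Ccne2 rose. Ccne1, cyclin E1, is a partner of Cdk2 (probe at chr7:38882937-38882960). Its level was 6.5 and 5.50 in undifferentiated cells, 6.72 and 6.58 at EB day 1, 5.61 and 5.10 at EB day 3, 4.49 and 4.24 at EB day 4, 6.69 and 7.11 at ML day 1, and 5.35 and 6.16 at ML day 3. Both EB day 4 arrays were the lowest of the 12. The fall from undifferentiated cells to EB day 4 was -1.64 ± 0.38 (3.11-fold, adjusted p = 0.00864), and its other probe gave -2.23. Differences at EB day 3 (-0.65) and ML day 3 (-0.25) were not called. Without undifferentiated replicate 1 the EB day 4 difference was -1.13, and without EB day 4 replicate 2 it was -1.51, both just above the threshold (adjusted p = 0.054).

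Cdc25a is the phosphatase that removes inhibitory phosphate from Cdk2 and Cdk1 (probe at chr9:109795020-109795082). It was 1.25 and 1.13 in undifferentiated cells, 0.48 and 0.49 at EB day 1, 0.39 and 0.21 at EB day 3, -0.54 and -0.77 at EB day 4, 0.52 and 0.73 at ML day 1, and 0.35 and 0.29 at ML day 3. The undifferentiated arrays were the highest and the EB day 4 arrays the lowest, with no overlap. Against undifferentiated cells it fell by 0.70 ± 0.19 on the log2 scale at EB day 1 (adjusted p = 0.0395), by 0.89 ± 0.19 at EB day 3 (adjusted p = 0.0106), by 0.87 ± 0.19 at ML day 3 (adjusted p = 0.0112) and by 1.84 ± 0.19 at EB day 4 (3.59-fold, adjusted p = 0.000159). ML day 1 was not called (-0.56, adjusted p = 0.066). It also fell between EB day 3 and day 4 (-0.95 ± 0.19, adjusted p = 0.0148). The EB day 4 fall was called under all 22 alternatives that could be run for it. The EB day 1 call was lost with the mean of its 2 probes (-0.55) and when any 1 of 10 arrays was left out (adjusted p up to 0.17), and the later ones on leaving out EB day 3 replicate 2 (EB day 3, -0.80) and EB day 3 replicate 1 or EB day 4 replicate 2 (day 4 against day 3, -0.86 and -0.84).

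Ccne2, cyclin E2, was -0.91 and -1.21 at EB day 4 and -1.54 and -2.63 in undifferentiated cells. The rise of 1.02 ± 0.36 was close to the threshold (adjusted p = 0.0473), and leaving out any array but undifferentiated replicate 1 ended the call (0.48, adjusted p = 0.29, without undifferentiated replicate 2), as did the mean of its probes (0.96) and the replicate block (adjusted p = 0.062). Cdk2, the kinase bound by both E-type cyclins, gave opposite answers by probe. The brighter probe (chr10:128140817-128140876) was -1.82 and -1.70 in undifferentiated cells and between -3.13 and -2.36 elsewhere, so that the undifferentiated arrays stood above all others. It fell at EB day 1 (-0.80 ± 0.21, adjusted p = 0.0386), EB day 3 (-1.04, adjusted p = 0.0090), ML day 3 (-0.95, adjusted p = 0.0132) and EB day 4 (-1.16, adjusted p = 0.0027). The EB day 4 difference was -0.46 and not called with normexp background correction, and that of EB day 1 was lost after quantile normalization (-0.67) and without any 1 of 8 arrays (adjusted p up to 0.18). Those of EB day 3 and ML day 3 were lost without EB day 3 replicate 2 (-0.98) and undifferentiated replicate 2 (-0.89). The other (chr10:128135214-128135273) was -4.30 and -3.55 in undifferentiated cells and -2.01 and -2.24 at EB day 1. Fitted with each probe by itself it rose by 1.80 ± 0.26 (adjusted p = 0.0066) at EB day 1 and was not called at EB day 4 (-0.13, adjusted p = 0.72). With the mean of both probes, the first 3 changes turned to 0.50, 0.21 and 0.26 and were not called. The direction of Cdk2 RNA is therefore not settled by these probes.

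Of the 3 kinase inhibitors, Cdkn2b and Cdkn2a were both called lower from EB day 1 to day 3, while Cdkn1b was called only in comparisons with ML day 1. Cdkn2b encodes p15, which binds Cdk4 and Cdk6 (probe at chr4:88952437-88952496). It was 0.40 and 0.22 in undifferentiated cells, 0.31 and 0.42 at EB day 1, -1.31 and -0.52 at EB day 3, -0.70 and -1.04 at EB day 4, 0.76 and 0.63 at ML day 1, and -0.26 and -0.13 at ML day 3. The 4 lowest arrays were those of EB days 3 and 4. It fell between EB day 1 and day 3, arrays of 1 slide, by 1.28 ± 0.27 on the log2 scale (2.43-fold, adjusted p = 0.0285), and against undifferentiated cells at EB day 3 (-1.23, adjusted p = 0.0122) and EB day 4 (-1.18, adjusted p = 0.0076). Without EB day 3 replicate 1, the lowest array, the EB day 3 differences were -0.89 and -0.83 and were not called (adjusted p = 0.090 and 0.065). The fall from EB day 1 to day 3 was also lost without either EB day 1 array (-1.34 and -1.23) and among the 8 arrays of 1 scan day (adjusted p = 0.053), and the EB day 4 fall without EB day 4 replicate 2 (-1.01).

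Cdkn2a, whose locus yields the inhibitor p16 and the p53 regulator p19Arf, fell over the same interval (-1.38 ± 0.32, adjusted p = 0.0415). Its arrays were -2.88 and -3.11 at EB day 1 and -4.03 and -4.72 at EB day 3, all dim, and 1 of the 2 EB day 4 arrays was not well above background. The call was lost without EB day 3 replicate 2 (-1.04, adjusted p = 0.30), without either EB day 1 array (-1.27 and -1.49), with normexp background correction (-0.56), when the 8 arrays scanned together were fitted alone (adjusted p = 0.070), and, narrowly, without any array of undifferentiated cells, EB day 4 or ML day 1. These were the 2 members called between EB day 1 and day 3, 4.65% against 5.5% of all genes (3.14% higher and 2.36% lower). The same day difference in ML was -0.89 for Cdkn2b and -1.12 for Cdkn2a, not called (adjusted p = 0.062 and 0.053), and the test of the difference between formats gave adjusted p = 0.82 and 0.92.

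Cdkn1b, which encodes the Cdk2 inhibitor p27, was lowest at ML day 1. Its arrays there read -1.95 and -2.05, below all 10 others, against -1.35 and -0.51 in undifferentiated cells and -0.77 and -1.01 at ML day 3. It fell at ML day 1 (-1.07 ± 0.30, adjusted p = 0.041) and rose from ML day 1 to day 3 (1.11 ± 0.30, 2.16-fold, adjusted p = 0.0438). A further probe gave the same fall at ML day 1 (-1.21). The fall was not called after quantile normalization (adjusted p = 0.065) or with normexp (-0.62). It was lost without undifferentiated replicate 2 (-0.65, adjusted p = 0.23) or either ML day 1 array (-1.12 and -1.01), and the rise without ML day 3 replicate 1 (0.99, adjusted p = 0.17) or either ML day 1 array (1.17 and 1.06), with normexp (0.68) and with the mean of its probes (0.99, adjusted p = 0.061). Leaving out an EB day 1 or EB day 4 array also put both just past the threshold.

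**Figure D2:**
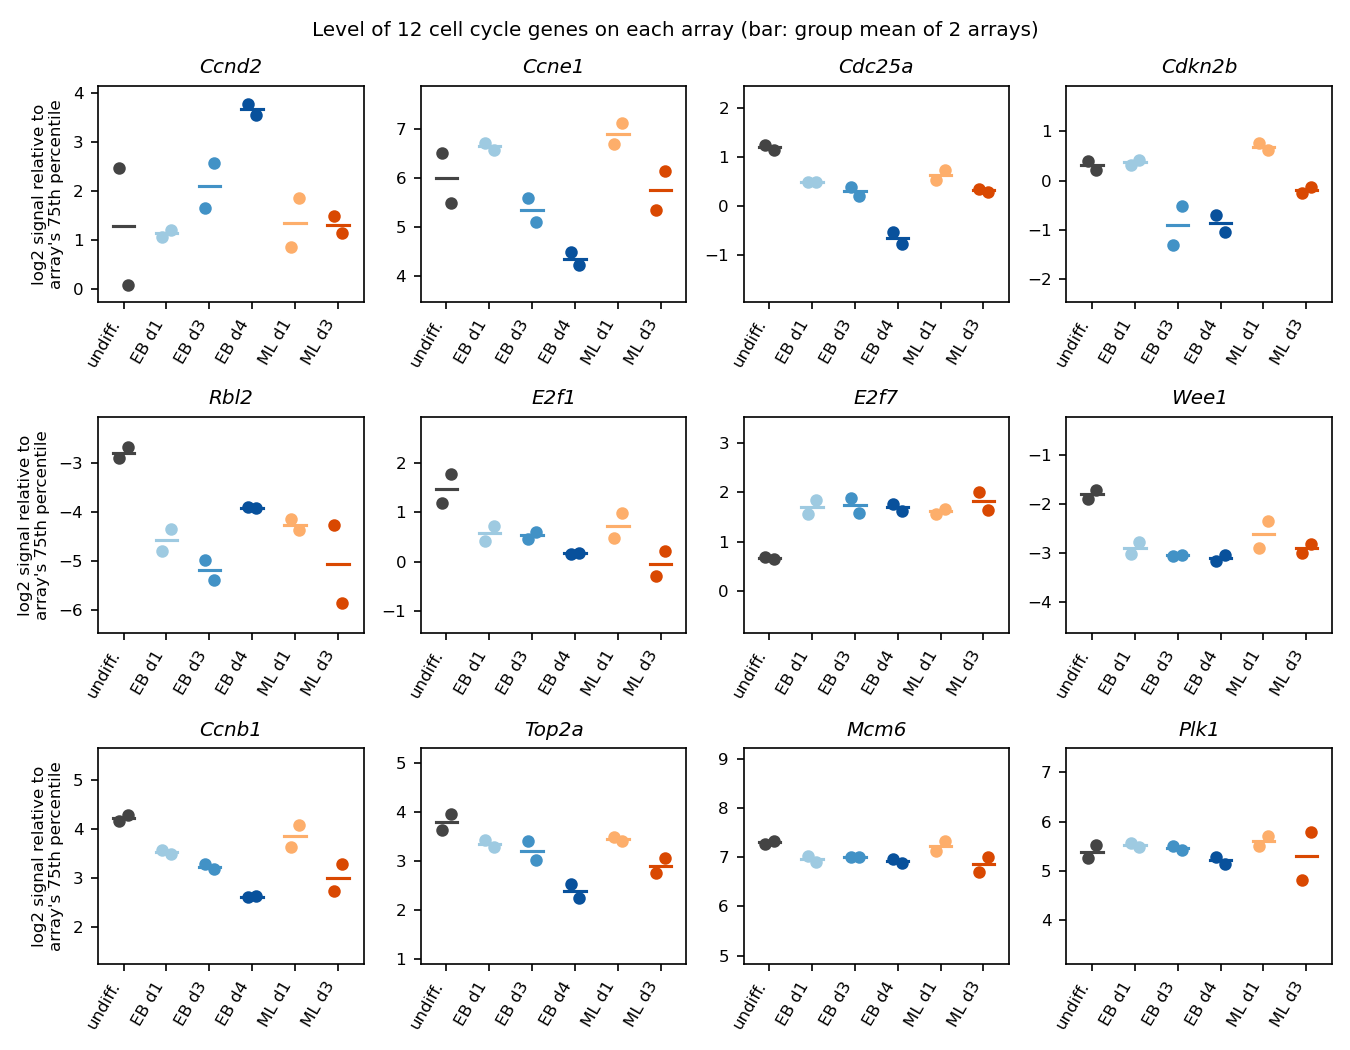
Points give the log2 level of 12 of the genes on each array, relative to the array's 75th percentile, bars the mean of the 2 arrays of a group, and all panels span the same number of log2 units. Ccnd2 peaks at EB day 4 while Ccne1, Cdc25a, Ccnb1 and Top2a are lowest there, and Mcm6 and Plk1 stay within 0.63 and 0.99 log2 units over the 12 arrays.

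In the retinoblastoma family, the pocket proteins that hold E2F factors, each member had its own pattern. Rb1 was -0.21 and 0.49 in undifferentiated cells and -0.99 and -0.67 at EB day 4, the 2 lowest arrays, a fall of 0.97 ± 0.34 on the log2 scale (adjusted p = 0.0451). Rbl1, which encodes p107, was -0.92 and -0.78 in undifferentiated cells and -0.01 and 0.23 at EB day 4, the 2 highest arrays, a rise of 0.96 ± 0.27 (adjusted p = 0.0196). Without undifferentiated replicate 2 the Rb1 difference was -0.62 (adjusted p = 0.24). It was also lost after quantile normalization (-0.96, adjusted p = 0.052), with normexp (-0.79) and without either EB day 4 array or any array of EB day 1, EB day 3 or ML day 1, and Rbl1 lost its call without any of the 4 arrays compared (0.84 to 1.08, adjusted p up to 0.11).

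Rbl2, which encodes p130, the pocket protein of resting cells, was highest in undifferentiated cells (probe at chr8:93647120-93647179). Its level was -2.91 and -2.68 there, -4.79 and -4.34 at EB day 1, -4.97 and -5.37 at EB day 3, -3.91 and -3.92 at EB day 4, -4.14 and -4.37 at ML day 1, and -4.26 and -5.85 at ML day 3. The probe passed the filter only through the undifferentiated group, where both arrays were well above background, so a lower level elsewhere was partly built into its selection. At EB day 3 no array was well above background. The fitted difference there, -2.38, is among the calls counted above and is given as a description only. At EB day 1, EB day 4, ML day 1 and ML day 3, 1 of 2 arrays was measured. The fitted differences there, -1.77, -1.12, -1.46 and -2.27 in that order, are given as a description only. All but that of EB day 4 are among the calls counted above. The ML day 1 difference was -0.38 with normexp background correction, and neither day 1 difference was called when any of the arrays compared was left out. Among the 43 genes Rbl2 was the 1 that passed through a single group.

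The activating E2F factors divided. E2f1, which drives S phase genes (probe at chr2:154386004-154386063), was 1.19 and 1.78 in undifferentiated cells, 0.43 and 0.72 at EB day 1, 0.47 and 0.60 at EB day 3, 0.16 and 0.17 at EB day 4, 0.47 and 0.99 at ML day 1, and -0.30 and 0.22 at ML day 3. Both undifferentiated arrays exceeded all 10 others. It fell at EB day 3 (-0.95 ± 0.29, adjusted p = 0.0403), EB day 4 (-1.32 ± 0.29, 2.5-fold, adjusted p = 0.0061) and ML day 3 (-1.53 ± 0.29, 2.88-fold, adjusted p = 0.0065). A further probe fell more at each (-1.47, -1.72 and -2.12). The EB day 4 fall was called under all 22 alternatives that could be run for it, whereas that at EB day 3 was lost without undifferentiated replicate 2 (-0.65, adjusted p = 0.20) or either EB day 3 array (-0.88 and -1.02), and narrowly without an EB day 1 or EB day 4 array.

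E2f2 was 1.46 and 1.21 in undifferentiated cells and at most 0.94 on the other arrays. It fell at ML day 3, where the arrays read -1.14 and 0.28 (-1.76 ± 0.41, adjusted p = 0.0163). Without ML day 3 replicate 1 the difference was -1.05 and not called (adjusted p = 0.055), nor was it without either undifferentiated array (-1.63 and -1.88). At EB day 3 and EB day 4 its differences of -1.24 and -1.06 were not called (adjusted p = 0.058 and 0.068). E2f3 was 2.43 and 1.42 in undifferentiated cells and 2.67 to 3.34 elsewhere. Its brightest probe rose at EB day 3 (1.31 ± 0.31, adjusted p = 0.0159), ML day 3 (1.04, adjusted p = 0.0373) and EB day 4 (1.31, adjusted p = 0.0089). The other 2 kept probes showed no such rise (0.03 and -0.05 at EB day 4, adjusted p = 0.95 and 0.93), and the mean of all 3 gave 0.43 there (adjusted p = 0.25), 0.32 at EB day 3 and 0.08 at ML day 3, none called. Without undifferentiated replicate 2 the brightest probe gave 0.81 at EB day 3 and 0.54 at ML day 3, neither called. The EB day 3 call was also lost without either EB day 3 array (1.24 and 1.38), that of EB day 4 without EB day 4 replicate 1 (1.20), and that of ML day 3 after quantile normalization (0.95) and without ML day 3 replicate 1 (0.85) or any EB or ML day 1 array.

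Of the 5 repressive E2F factors, E2f5, E2f6 and E2f7 were higher at EB day 4 than in undifferentiated cells and E2f8 was lower. E2f7, an atypical factor that represses E2F targets late in S phase (probe at chr10:110224153-110224212), was 0.69 and 0.65 in undifferentiated cells, 1.55 and 1.86 at EB day 1, 1.89 and 1.58 at EB day 3, 1.77 and 1.63 at EB day 4, 1.57 and 1.67 at ML day 1, and 2.02 and 1.63 at ML day 3. The undifferentiated arrays lay below all 10 others. It was called in all 5 comparisons with undifferentiated cells, at 1.03 ± 0.22 (EB day 1, adjusted p = 0.0191), 0.95 (ML day 1, adjusted p = 0.0212), 1.06 (EB day 3, adjusted p = 0.0090), 1.15 (ML day 3, adjusted p = 0.0065) and 1.03 (EB day 4, 2.04-fold, adjusted p = 0.0053). EB day 3 against day 1 differed by 0.03 and EB day 4 against day 3 by -0.03, neither called. The day 1 calls were lost without undifferentiated replicate 2 (1.01 and 0.93, adjusted p = 0.076 and 0.092) or any of the day 1 arrays (0.88 to 1.18), and that of EB day 3 without EB day 3 replicate 1 (0.91). The rise at EB day 4 was called under all 22 alternatives that could be run for it.

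E2f6, a repressor linked to Polycomb complexes, was 2.80 and 2.27 in undifferentiated cells and 3.23 to 3.91 elsewhere, again with no overlap. It rose at ML day 1 (1.03 ± 0.26, adjusted p = 0.0274), EB day 3 (1.27, adjusted p = 0.0089), ML day 3 (1.18, adjusted p = 0.0118) and EB day 4 (1.16, adjusted p = 0.0068). E2f5 was 1.47 and 1.84 in undifferentiated cells, 2.35 and 2.67 at EB day 3, 2.61 and 2.75 at EB day 4, and 1.87 and 2.04 at ML day 3. The changes were 0.85 ± 0.21 at EB day 3 (adjusted p = 0.0211) and 1.02 ± 0.21 at EB day 4 (adjusted p = 0.0053), and a further probe gave 1.02 at EB day 4. EB and ML day 3 differed by 0.55, which was not called (adjusted p = 0.22). Without undifferentiated replicate 1 the E2f5 rise at EB day 3 was 0.67 and without EB day 3 replicate 2 it was 0.69, neither called. E2f6 lost calls without undifferentiated replicate 2 (0.76 at ML day 1, 1.0 at EB day 3 and 0.91 at ML day 3), without EB day 4 replicate 1 (0.98 at EB day 4), without ML day 3 replicate 1 (0.98 at ML day 3), without either ML day 1 array (1.06 and 1.0) and after quantile normalization (0.71 at ML day 1). With the mean of its 2 probes none of the 4 was called (0.91 to 1.06, adjusted p = 0.066 to 0.14).

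E2f4, the main repressor of resting and early G1 cells, rose at day 1 and was lowest at EB day 4. Its differences from undifferentiated cells at EB day 3, ML day 3 and EB day 4 were not called. It was 0.27 and -0.42 in undifferentiated cells, 1.33 and 1.07 at EB day 1, 1.11 and 0.60 at EB day 3, -0.59 and -0.64 at EB day 4, 1.12 and 1.24 at ML day 1, and 0.29 and 0.94 at ML day 3. The EB day 4 arrays were the lowest of the 12. It rose at EB day 1 (1.28 ± 0.31, 2.42-fold, adjusted p = 0.0288) and ML day 1 (1.26 ± 0.31, adjusted p = 0.026) and fell from EB day 3 to day 4 (-1.47 ± 0.31, 2.77-fold, adjusted p = 0.0182). Without undifferentiated replicate 2 the day 1 differences were 0.93 and 0.91 and not called, nor were they without either array of the same day 1 group. The later fall was lost without EB day 3 replicate 1 (-1.22) or either EB day 4 array (-1.5 and -1.45). E2f8, the atypical partner of E2f7, was 0.01 and -0.58 in undifferentiated cells and -1.26 and -0.98 at EB day 4, a fall of 0.84 ± 0.30 on the log2 scale that only just passed (adjusted p = 0.0494) and was lost without undifferentiated replicate 1 (-0.55, adjusted p = 0.24), without any array of the EB groups or ML day 1, after quantile normalization (-0.78) and with normexp (-0.45).

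The 8 licensing and fork genes were called in no comparison, among 11. They are Cdc6, which loads the helicase at origins, the 6 helicase subunits Mcm2 to Mcm7, and Pcna, the sliding clamp of DNA polymerase. Over the 12 arrays Mcm3 lay between 6.18 and 6.78, Mcm4 between 5.51 and 6.05, Mcm6 between 6.70 and 7.34 and Mcm7 between 5.92 and 6.60. Mcm2 (3.83 to 5.08), Mcm5 (4.96 to 6.29), Pcna (5.36 to 6.48) and Cdc6 (1.14 to 2.41) ranged further. Mcm6, for example, was 7.26 and 7.34 in undifferentiated cells and 6.96 and 6.87 at EB day 4, a difference of -0.38 (adjusted p = 0.13). At EB day 4 all 8 lay below 0 with a median of -0.30, and the largest single difference was that of Cdc6 (-0.49 ± 0.21, adjusted p = 0.094). At ML day 1 the median was 0.46 with 7 of 8 above 0, but 0.03 with 4 of 8 above 0 after quantile normalization.

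Further probes for Mcm3 and Cdc6 did not give the same answer as the brightest ones. The second Mcm3 probe (chr1:20795363-20795879) was 4.27 and 4.24 in undifferentiated cells and 3.19 and 3.00 at EB day 4. Fitted by itself it fell by 1.16 ± 0.21 on the log2 scale (adjusted p = 0.0027), while the brightest differed by -0.02. The second Cdc6 probe (chr11:98785169-98785228) was -0.19 and -0.58 in undifferentiated cells and rose by 1.13 ± 0.29 at EB day 4 (adjusted p = 0.0137). So the absence of a call for these 2 genes holds for the brightest probe only.

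Genes of mitotic entry fell in part. Ccnb1, cyclin B1, activates Cdk1 (probe at chr13:101549634-101549693). It was 4.16 and 4.27 in undifferentiated cells, 3.57 and 3.49 at EB day 1, 3.28 and 3.19 at EB day 3, 2.62 and 2.63 at EB day 4, 3.63 and 4.09 at ML day 1, and 2.73 and 3.27 at ML day 3. The undifferentiated arrays were the highest of the 12 and the EB day 4 arrays the lowest. It fell by 0.98 ± 0.24 at EB day 3 on the log2 scale (adjusted p = 0.0177), by 1.21 ± 0.24 at ML day 3 (adjusted p = 0.0077) and by 1.59 ± 0.24 at EB day 4 (3.02-fold, adjusted p = 0.00097). The other 2 probes fell less at EB day 4 (-0.85 and -0.95, both called), and at ML day 3 neither was called (-0.17 and -0.67). It also fell from ML day 1 to day 3, on 1 slide (-0.86 ± 0.24, adjusted p = 0.046), and this call was lost without ML day 3 replicate 1 (-0.58) or either ML day 1 array (-1.09 and -0.63), without any array of undifferentiated cells or EB, after quantile normalization (-0.65) and with the mean of its probes (-0.72, adjusted p = 0.051). The EB day 3 call was lost with the mean of its 3 probes, where the difference was -0.53 (adjusted p = 0.092), and without undifferentiated replicate 2 (-0.93) or either EB day 3 array (-1.03 and -0.94).

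Ccnb2, cyclin B2, was 5.83 and 6.34 in undifferentiated cells, 5.38 and 5.06 at EB day 4 and 4.62 and 5.23 at ML day 3. It fell at EB day 4 (-0.87 ± 0.27, adjusted p = 0.0286) and ML day 3 (-1.16 ± 0.27, adjusted p = 0.015), and both were lost without undifferentiated replicate 2 (-0.61 and -0.90). The EB day 4 call was also lost without either EB day 4 array (-1.03 and -0.71) and the ML day 3 call without ML day 3 replicate 1 (-0.85). Wee1, the kinase that holds Cdk1 inactive (probe at chr7:117283161-117283220), was -1.90 and -1.71 in undifferentiated cells, -3.01 and -2.76 at EB day 1, -3.05 and -3.04 at EB day 3, -3.15 and -3.04 at EB day 4, -2.89 and -2.34 at ML day 1, and -2.99 and -2.80 at ML day 3. The undifferentiated arrays stood above all others. It was the second gene called in all 5 comparisons with undifferentiated cells, with falls of 1.08 ± 0.23 at EB day 1 (adjusted p = 0.0191), 0.81 at ML day 1 (adjusted p = 0.0396), 1.24 at EB day 3 (adjusted p = 0.0058), 1.09 at ML day 3 (adjusted p = 0.0100) and 1.29 at EB day 4 (2.45-fold, adjusted p = 0.0023). The falls at EB days 3 and 4 were called under all 22 alternatives that could be run for them. At EB day 1 the call was lost without undifferentiated replicate 2 (-0.99) or either EB day 1 array (-0.96 and -1.21). The ML day 1 call was lost after quantile normalization (-0.70) and without any 1 array but those of ML day 3 (adjusted p up to 0.23), and the ML day 3 call without undifferentiated replicate 2 (-0.99).

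Cdk1 itself and Ccna2, cyclin A2, were not called in any comparison. Ccna2 lay between 3.78 and 4.28, the narrowest range of the 43 genes. Cdk1 was 3.16 and 3.13 in undifferentiated cells and 2.81 and 2.46 at EB day 4 (-0.50 ± 0.30, adjusted p = 0.21). A dimmer Cdk1 probe (chr10:68800164-68800223), well above background on 9 arrays, rose at EB day 1 (1.29 ± 0.33, adjusted p = 0.0337) where the brightest gave -0.41. Cdc25a and Wee1, which act on Cdk1 in opposite ways, were both lower at EB day 4 than in undifferentiated cells.

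Among the mitotic kinases, checkpoint and chromosome genes, Top2a was the only one called. It encodes topoisomerase II alpha, which separates replicated chromosomes (probe at chr11:98857244-98858058). Top2a was 3.64 and 3.96 in undifferentiated cells, 3.43 and 3.29 at EB day 1, 3.40 and 3.02 at EB day 3, 2.53 and 2.25 at EB day 4, 3.49 and 3.41 at ML day 1, and 2.76 and 3.06 at ML day 3. The EB day 4 arrays were the lowest, and the undifferentiated arrays the highest. It fell at ML day 3 (-0.89 ± 0.23, adjusted p = 0.0219) and EB day 4 (-1.41 ± 0.23, 2.65-fold, adjusted p = 0.0014), and from EB day 3 to day 4 (-0.82 ± 0.23, adjusted p = 0.0452). A further probe fell by 1.98 ± 0.22 at EB day 4 on the log2 scale. Without undifferentiated replicate 2 or ML day 3 replicate 1 the ML day 3 difference was -0.73 or -0.74 and not called, and the step from EB day 3 to day 4 was lost without any of the 4 arrays compared (-0.63 to -1.01) or an EB day 1 or ML day 1 array.

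The mitotic kinases Plk1 (4.80 to 5.79), Aurka (4.96 to 5.68) and Aurkb (0.34 to 2.62), the checkpoint kinase Bub1 (2.13 to 3.29), the anaphase activator Cdc20 (6.30 to 7.11) and Mki67 (3.83 to 4.64), which encodes the proliferation marker Ki-67, were called nowhere. Mki67 was 3.83 and 4.27 in undifferentiated cells and 4.27 and 4.37 at EB day 4, a difference of 0.27 ± 0.22 (adjusted p = 0.36), so the 2 groups touched. Plk1 was 5.27 and 5.51 against 5.27 and 5.14 (-0.18, adjusted p = 0.65). A second Bub1 probe (chr2:127626326-127626385) fell at EB day 4 (-0.86 ± 0.20, adjusted p = 0.0075), where the brightest differed by -0.26.

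**Figure D3:**
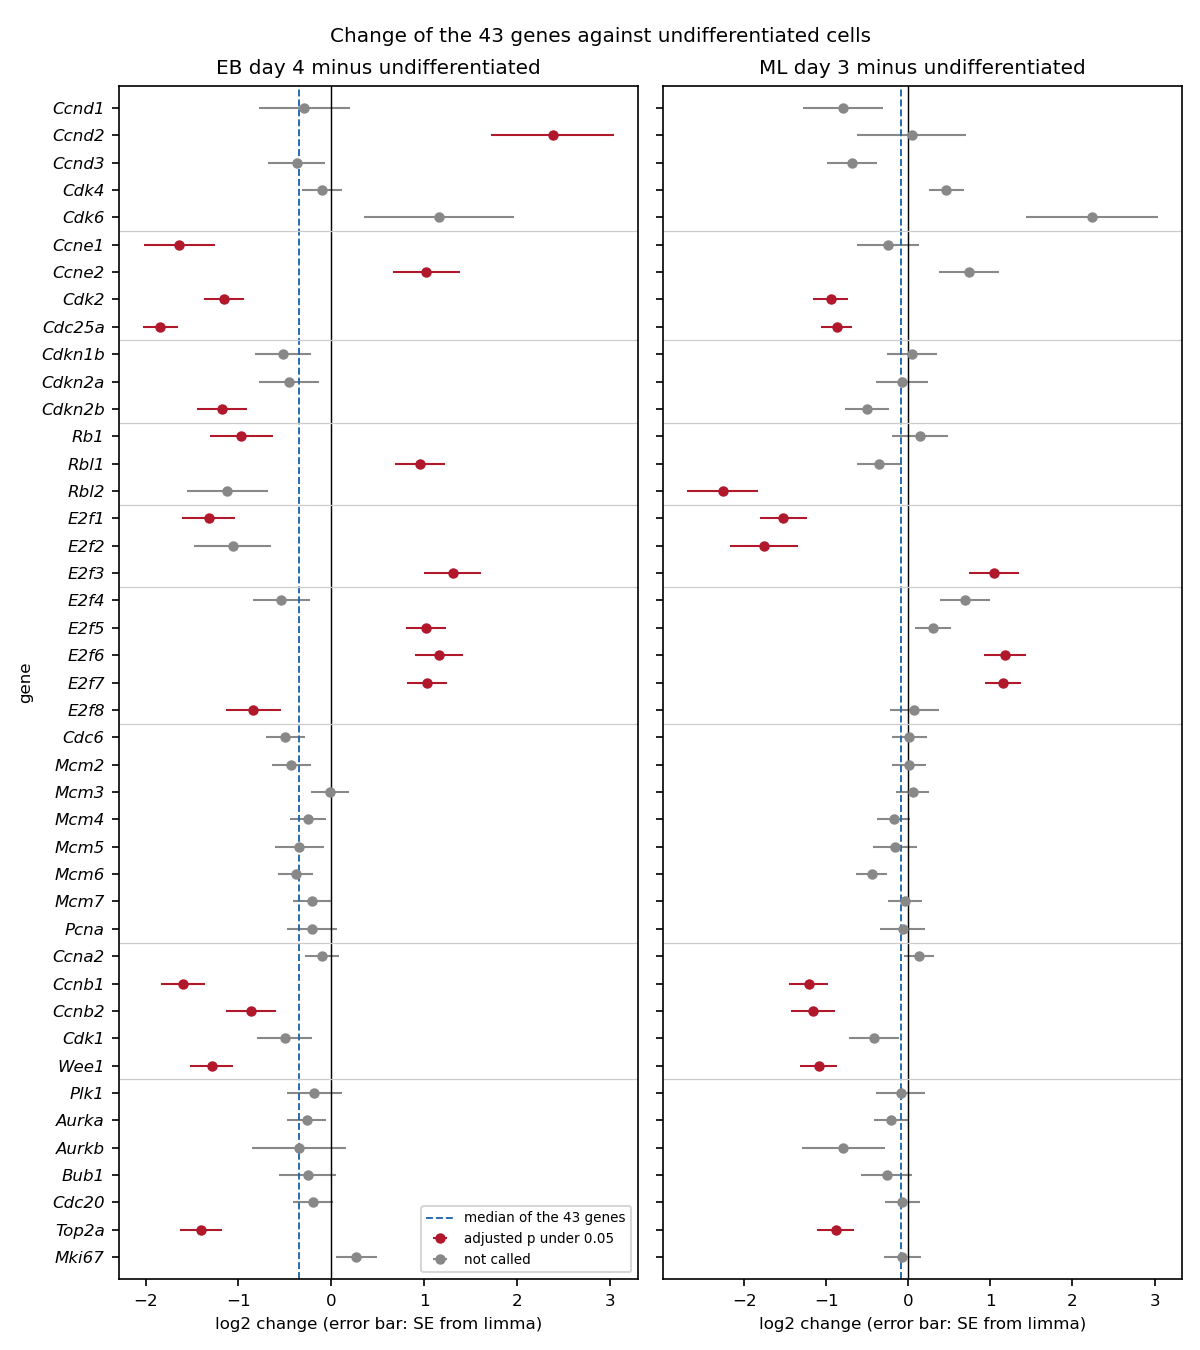
Points give the log2 change of the 43 genes against undifferentiated cells at EB day 4 (left) and ML day 3 (right), error bars the SE from limma, red points the genes called at an adjusted p under 0.05, and the dashed line the median of the 43. In the licensing and fork block no point is red in either panel, and the EB day 4 median lies at -0.35.

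From EB day 3 to day 4 the called members were Cdc25a, E2f4 and Top2a, all lower, 6.98% against 12.8% of all genes (3.89% higher and 8.86% lower). With normexp background correction the members called were 2 higher and 6 lower. Of all genes, 1694 were then called higher and 1202 lower, against 682 and 1553 without it. Of all genes called in this step 30.5% were higher, but 58.5% with normexp and 73.7% with no filter on dim probes. From ML day 1 to day 3 they were Cdkn1b, higher, and Ccnb1, lower, 4.65% against 12.5% (5.8% higher and 6.71% lower). The median of the 43 for this ML step was -0.37, against -0.14 over all genes, and 33 of 43 lay below 0. The ML day 3 arrays lay far apart for some members (Aurkb 0.34 and 2.21, Plk1 4.80 and 5.79), and the count of called members depended on which was kept. Without replicate 2 it was 15, of which 14 were lower, among them Mcm2 (-0.76), Mcm5 (-1.14), Pcna (-0.92), Plk1 (-0.80) and Aurkb (-2.09). That is 34.9% of the members, against 27% of all genes (16.4% lower). Without replicate 1 there was 1, lower, 2.33% against 4.97% (2.81% lower). The lone ML day 3 array is then assumed to vary like the other groups.

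No difference between EB and ML was called for these genes on either day. At day 1 limma called 0 of the 43, against 0.131% of all genes (0.0228% higher and 0.108% lower). An unadjusted p under 0.05 was found for 1 of the 43 (Mki67, 0.51 ± 0.22) and for 1629 of all 17522 genes. At day 3 it called 0, against 3.34% (1.64% higher and 1.7% lower). An unadjusted p under 0.05 was found for 3 of the 43 (Cdkn2b -0.72, E2f5 0.55 and Bub1 0.81) and for 3095 of all 17522 genes. The test of whether the step from day 1 to day 3 differed between formats called 0, against 0.245% (0.154% higher and 0.0913% lower). It gave an unadjusted p under 0.05 for 0 of the 43 and for 1788 of all 17522 genes. The differences between formats at day 1 ranged from -0.56 to 0.64 and at day 3 from -0.72 to 1.0. Without ML day 3 replicate 2 limma called 3 at day 3, Aurkb (1.94), E2f2 (1.23) and Rbl1 (0.95), all higher in EB, 6.98% against 14.1% of all genes (8.28% higher). A missing call does not show that the formats were alike, since each group had 2 arrays. The EB and ML arrays of these days were also on different slides, so on either day culture format and slide cannot be told apart.

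Other genes of the same processes were read from lists drawn up beside the 43. Of 36 other mitosis genes, 0 were higher and 16 lower at EB day 4, with a median of -0.61 against -0.05 over all genes, and 0 and 9 at EB day 3. The lower ones were 44.4% of the list at EB day 4 and 25.0% at EB day 3, against 22.1% and 10.8% of all genes. Of all genes, 18.7% were higher at EB day 4 and 13% at EB day 3. Anln, an organiser of the cleavage furrow, fell most at EB day 4 (-2.22 ± 0.22, adjusted p = 0.000147 in the same limma fit), followed by the condensin subunit Smc2 (-1.90 ± 0.20). At EB day 1 0 were higher, against 8.09% of all genes, and 5 lower (13.9% against 5.46%), including Anln (-1.60) and the midzone kinesin Kif23 (-1.40). ML day 1 gave 2 higher (5.56% against 11.7% of all genes) and 3 lower (8.33% against 6.43%). At ML day 3 0 were higher, against 12.6%, and 8 lower (22.2% against 10.8%).

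Of 41 other replication genes, 1 was higher and 11 lower at EB day 4, with a median of -0.41. The share lower, 26.8%, was near the 22.1% of all genes, and the share higher was 2.44%, against 18.7%. The lower ones included the clamp loader subunit Rfc5 (-1.48 ± 0.33), Mcm10 (-1.10 ± 0.30), the polymerase alpha catalytic subunit Pola1 (-1.08 ± 0.26) and the origin recognition subunit Orc1 (-1.02 ± 0.30). At ML day 1 6 were higher (14.6% against 11.7% of all genes) and 0 lower (against 6.43%). The higher ones included Rpa3 (1.47 ± 0.25), which binds single-stranded DNA, and the nucleotide enzyme Tyms (1.17 ± 0.23). Dbf4, the activator of the Cdc7 kinase, fell at EB day 1 (-0.99), EB day 3 (-1.53) and ML day 3 (-0.88). The other replication genes thus held calls in both directions.

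Of 26 other regulators, 2 were higher (7.69% against 18.7% of all genes) and 7 lower at EB day 4. The share lower, 26.9%, was again near that of all genes, 22.1%. Mybl2, an activator of mitotic genes, fell by 2.81 ± 0.23 on the log2 scale (adjusted p = 7.35e-05), and from EB day 1 to day 3 (-1.42) and ML day 1 to day 3 (-1.78). Cdkn2c, the inhibitor p18, fell in all 5 comparisons with undifferentiated cells, by 1.31 to 1.97. Myc, which promotes growth and cycle entry, rose at EB day 4 (2.12 ± 0.69, adjusted p = 0.035), and Cdkn1c, the inhibitor p57, rose from EB day 3 to day 4 (1.71 ± 0.30). Leaving out 1 array took Myc to between 0.74 and 3.51 (adjusted p up to 0.13), and Cdkn1c, the day 1 genes named from these lists, Dbf4 at ML day 3, Mybl2 from EB day 1 to day 3, Rfc5, Mcm10, Pola1 and Orc1 also lost their calls when 1 array was left out.

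**Figure D4:**
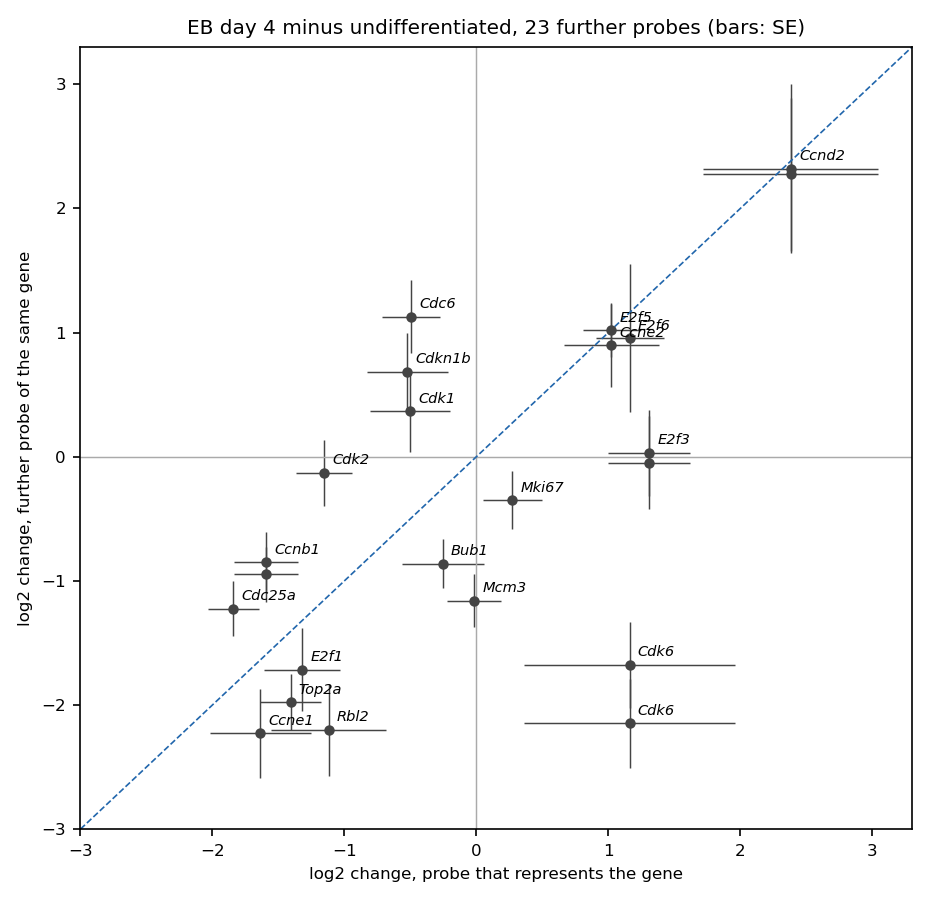
Each point is 1 of 23 further probes, its log2 change from undifferentiated cells to EB day 4 (vertical) against that of the probe representing the same gene (horizontal), with SE bars and the line of equality dashed. The further probes of Ccnd2, E2f5, Ccne1, Top2a and Cdc25a have the same sign as the representing probe, while those of Cdk6 and Cdc6 have the opposite sign.

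The reading of a gene by more than 1 probe was possible for 19 members, with 23 further probes. At EB day 4 16 of the 23 had the same direction as the representing probe, and 13 of 14 did for genes that were called. At EB day 3 and ML day 3 7 of 10 did for called genes, where those opposed were 1 probe of Cdk2 and 2 of E2f3. Cdk6 was the widest disagreement: its brightest probe differed by 1.16 ± 0.80 at EB day 4 and was not called, while the others (chr5:3521669-3521728 and chr5:3473220-3515504) fell by 2.15 ± 0.36 and 1.68 ± 0.35 on the log2 scale (adjusted p = 0.0017 and 0.0048). The first of these was dim, well above background on 6 of the 12 arrays. Which transcripts these probes read was not examined here.

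Of 61 member changes called over the comparisons, 8 of genes other than Rbl2 were called under all 22 alternative settings that could be run for them, 12 of which leave out 1 array. They were the fall of Wee1 at EB day 3 and, at EB day 4, the falls of Ccnb1, Cdc25a, E2f1, Top2a and Wee1 and the rises of E2f5 and E2f7. With all arrays kept, those of Ccne1, Cdkn2b and Rbl1 at EB day 4 also held. Fitting only the groups compared ended 46 of the 61 calls, the most of any setting. Among them were all those called at ML day 1, at ML day 3 and between differentiated groups. Fitting every gene with no filter on dim probes ended 13. Leaving out undifferentiated replicate 2 ended 31 and leaving out replicate 1 ended 12.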

How the data were processed

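Total RNA was labelled with Cy3 and hybridised to 12 Agilent one-colour arrays, 2 per group. The deposited scanner files hold each spot's intensity, background-subtracted by Feature Extraction, and other values that flag spots, per the file headers. The submitters' processing notes give version 9.5.1.1 of that software, but the headers give 10.5.1.1 (undifferentiated arrays), 10.7.1.1 (EB arrays of day 4) and 10.7.3.1 (the rest). The authors' deposited value table holds intensity too, and its log2 values correlated with the scanner intensity at 0.998 to 1.00.

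Each processed signal was taken as log2 minus the array's 75th percentile. Control and outlier spots were left out, spots of a probe averaged, and probes kept that were well above background on both arrays of at least 1 group (26174 of 41174). The brightest kept probe stood for a gene. All 6 groups were fitted with limma 3.58.1 in R 4.3.3 (lmFit, eBayes, 6 residual degrees of freedom), and p-values adjusted by Benjamini-Hochberg over 17522 genes. The script was tested on simulated data. The small number of arrays limits the precision. Probe positions are those of the files (mm9).

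The 43 genes and the lists were chosen with earlier results of these data known. All 43 members are named, and of each other list up to 4 called genes with the largest change per comparison. Alternatives changed the background correction, normalization, dim-probe filter, probe choice, replicate block, samples fitted and variance prior, and left out each array. Tables and plots used Python 3.11.15, pandas 2.3.3 and matplotlib 3.10.9.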

Additional observations from a re-analysis of the deposited data

How the results depend on the processing

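Ranges are over leaving out each array in turn. The count of the 43 genes called against undifferentiated cells was 6 at EB day 1 (10 with normexp background correction, 3 with no filter on dim probes, 1 with only the groups compared, range 0 to 11), 7 at ML day 1 (3 with no filter, 0 with only the groups compared, 0 to 14), 11 at EB day 3 (3 with only the groups compared, 5 to 15), 12 at ML day 3 (0 with only the groups compared, 6 to 17) and 18 at EB day 4 (10 to 19). From EB day 1 to day 3 it was 2 (0 with no filter, with only the groups compared or the 8 arrays of 1 scan day, 1 with a strict filter, 0 to 3). From ML day 1 to day 3 it was 2 (4 with normexp or a strict filter, 5 with a trended variance prior, 1 after quantile normalization, with every probe by itself or the 8 arrays, 0 with no filter, the mean of probes or only the groups compared, 0 to 15). From EB day 3 to day 4 it was 3 (8 with normexp, 0 with only the groups compared, 0 to 6). Between formats it was 0 at day 1 (0 to 0), 0 at day 3 (0 to 3) and 0 for the difference in day effect (0 to 0). The fit with only the groups compared rests on few arrays. Of all genes, normexp called 1597 higher and 850 lower at EB day 1, against 1417 and 957 without it. For settings that keep all arrays, the next paragraph gives only all-gene counts that changed by more than 1.5-fold.

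Of all genes, with only the groups compared, 767 in place of 2374 were called at EB day 1, 324 in place of 3169 at ML day 1, 1642 in place of 4159 at EB day 3, 955 in place of 4108 at ML day 3, 665 in place of 2192 from ML day 1 to day 3, 481 in place of 2235 from EB day 3 to day 4, and 0 in place of 585 between formats at day 3. With no filter on dim probes the counts were 13313 in place of 7163 at EB day 4, 7540 from EB day 3 to day 4, 577 in place of 964 from EB day 1 to day 3 (639 with a strict filter) and 375 between formats at day 3. Between formats at day 1, 23 were called (12 after quantile normalization, 13 with the authors' values, 1 with no filter, 0 with a strict filter, 10 with every probe, 5 with the replicate block, 3 with only the groups compared, 9 with the 8 arrays), and 43 for the difference in day effect (6 with no filter, 9 with only the groups compared or the 8 arrays). Leaving out 1 array gave 201 to 3675 at EB day 1, 251 to 4469 at ML day 1, 1813 to 5395 at EB day 3, 2343 to 5629 at ML day 3, 4610 to 8256 at EB day 4, 103 to 1401, 378 to 4727 and 338 to 3190 for the later steps in the order above, 1 to 14 and 115 to 2475 between formats, and 0 to 297 for the difference in day effect.

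Among the 61 member changes, 3 reversed, all of Cdk2 with the mean of the gene's probes (0.50 at EB day 1, 0.21 at EB day 3, 0.26 at ML day 3). The replicate block gave 1 called member from EB day 1 to day 3 and 1 from ML day 1 to day 3, and ended 7 of the 61 calls. Deviations of same-numbered arrays correlated at -0.157 to 0.226, so the numbers were not taken to pair the arrays. The causes of these shifts were not tested.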
